A study of Mus musculus with 6 samples.

Results

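The clusters described here are moderately covered small RNA regions of mouse pachytene spermatocytes whose names begin with piC. They were chosen by name and by reads: each piC cluster whose expected counts, summed over the 4 small RNA libraries, reached 40 and stayed below 200. They comprise 554 clusters numbered below piC_1536 and 528 numbered from there on, which together are 21.9% of the 4944 clusters with reads in any library and 40.3% of the 2684 piC clusters. No source used here says what separates piC clusters from the 2260 clusters named by a number.

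Pachytene spermatocytes are the germ cells that are recombining their chromosomes in the first meiotic prophase. Small RNA was measured in 2 wild type (WT) libraries, in 1 library from Alkbh1-/- mice, whose targeted allele lacks exon 6, and in 1 library from TzfpGTi/GTi mice, homozygous for a gene trap whose splice acceptor lies upstream of exon 1 of Tzfp. The Alkbh1 line was backcrossed to C57/BL6; no source used here gives ages or the number of animals behind each library. There are also mRNA counts from 1 WT and 1 Alkbh1-/- library.

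PIWI-interacting RNAs (piRNAs) are germline small RNAs that are loaded onto PIWI proteins and silence transposons and other transcripts. In mice, most piRNAs of pachytene spermatocytes are cut from long single-stranded precursors transcribed from a limited set of genomic clusters, many of them in pairs that run in opposite directions. A few clusters give most of the piRNA, and a long series of sparsely covered regions gives the rest. ALKBH1 belongs to the AlkB family of dioxygenases, which remove methyl groups from nucleic acids, and TZFP (also known as ZBTB32) is a zinc finger protein with a BTB domain that is prominent in testis.

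The labels do not tie the WT libraries to separate animals, so the p-values rest on a spread between libraries that may be technical. Cluster reads summed to between 7306115 (Alkbh1-/-) and 15319520 (WT replicate 2) per library. In such bulk samples, fewer cells of a type and less RNA per cell cannot be told apart. The labelled cell type was checked in the mRNA libraries only, as read counts scaled to library size (CPM). All 8 pachytene markers were present in both. They summed to 12900 CPM in WT and 12200 CPM in Alkbh1-/-, and 4 of the 8 were lower in the mutant. Piwil1, a PIWI protein of this stage, stood at 1140 CPM in WT against 1230 CPM in Alkbh1-/-. The 5 matched Sertoli cell markers of a list of 6 summed to 2120 CPM in WT and 1100 CPM in Alkbh1-/-, each lower in the mutant and none at 0. The 4 matched Leydig cell markers of 5 summed to 61.1 and 129 CPM, the spermatid markers to 1010 and 1170 CPM and the spermatogonial markers to 104 and 164 CPM. The spermatid markers were split: 3 of 5 were lower in Alkbh1-/-, and their median was 226 CPM in WT and 181 CPM in Alkbh1-/-. The part of these differences in the small RNA results below was not tested.

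The members were individually modest and collectively a small fraction of the small RNA in clusters. Together they held 25573 reads in WT replicate 1, 30212 in replicate 2, 18609 in Alkbh1-/- and 32534 in TzfpGTi/GTi. The median member had 21.0 reads in WT replicate 1, 24.8 in replicate 2, 15.1 in Alkbh1-/- and 27.0 in TzfpGTi/GTi. These values follow from the reads that chose the members and the depth of each library. A total of 1081 members had reads in all 4 libraries. The exception was piC_1423 on chromosome 17, with 8 and 12 reads in the WT libraries, 20 in TzfpGTi/GTi and 0 in Alkbh1-/-. Under 5 reads were found for 55 members in Alkbh1-/- and for 2 to 9 members in each of the other libraries. In some library 923 members had a value that was not whole, beyond 0.01 of a whole number.

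Reads ran on without a gap at either limit. Just inside the lower limit, piC_1423, piC_1844 and piC_105 each summed to 40 reads. Just outside it, piC_293 and piC_460 summed to 39.8 reads each and so did piC_315. Just inside the upper limit were piC_1302 with 198.9 reads, piC_1477 with 198.3 and piC_603 with 197.8. Just outside it, piC_194, piC_114 and piC_592 had 200.0, 200.2 and 200.8 reads. The median sum was 89 reads, against 475 for the 831 piC clusters above the range and 18 for the 771 below it.

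As shares of all cluster reads, the members took 0.251% of WT replicate 1 (95% Wilson interval 0.248 to 0.254%), 0.197% of WT replicate 2 (0.195 to 0.199%), 0.255% of Alkbh1-/- (0.251 to 0.258%) and 0.220% of TzfpGTi/GTi (0.218 to 0.223%). These intervals cover counting error only. The WT libraries differed from each other by 1.27 times in this share. The Alkbh1-/- share was 1.02 times that of WT replicate 1 and 1.29 times that of WT replicate 2, and the TzfpGTi/GTi share lay between the WT values. The WT mean was 0.224% ± 0.0379 (SD, n = 2). Alkbh1-/- thus lay just above the higher WT value, at 1.02 times it, where the WT libraries differed by 1.27 times.

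The spread between the WT libraries was larger for sparse clusters. piC clusters under 40 reads took 0.0407% of WT replicate 1 and 0.0223% of WT replicate 2, a ratio of 1.82. piC clusters of 200 or more reads took 6.31% and 6.5%, a ratio of 0.970. The 137 numbered clusters with 40 to 200 reads had a ratio of 1.23, near that of the members. The deposited tables of WT replicate 1 and Alkbh1-/- follow 1 naming scheme and those of WT replicate 2 and TzfpGTi/GTi another. No source used here says what the schemes stand for. Within the schemes, the members' share was 1.02 times WT in Alkbh1-/- and 1.12 times WT in TzfpGTi/GTi, and the scheme's part in these ratios was not tested.

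**Figure D1:**
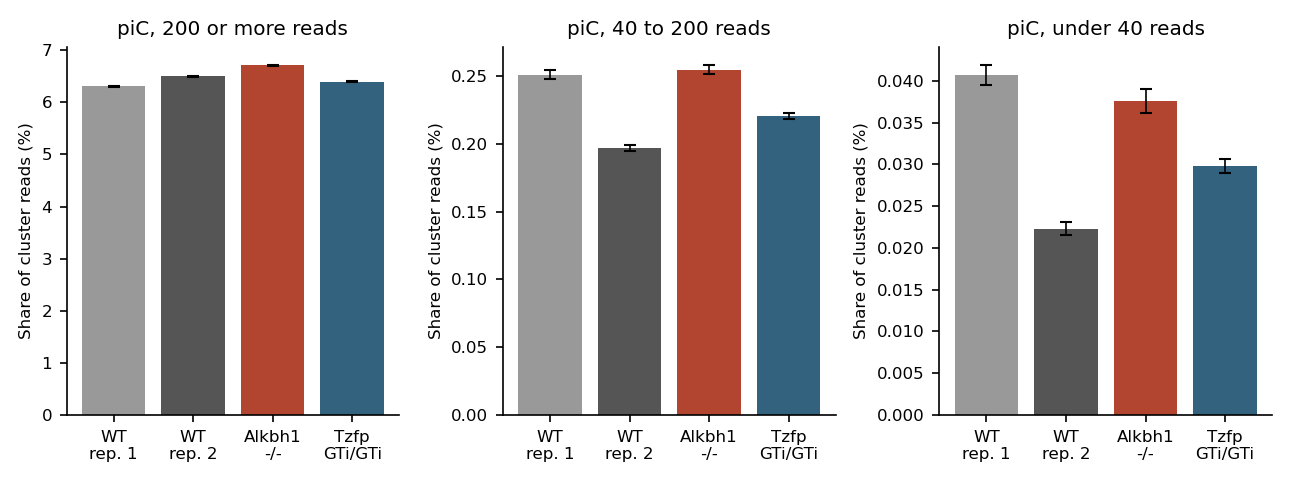
Share of each library's cluster reads (%) held by piC clusters of 200 or more reads, of 40 to 200 reads (the members) and of under 40 reads; bars are single libraries and error bars are 95% Wilson intervals (counting error only). The members took 0.251% and 0.197% of the WT libraries, and both mutant values, 0.255% and 0.220%, lie near or between them.

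Members ranged from 155 bp to 194421 bp in length, with a median of 22.8 kb and quartiles of 12.5 and 36.0 kb, and covered 30.7 Mb in all. Length was not used by the rule, although it rose with the class of reads. piC clusters above the range had a median length of 29.1 kb and those below it 20.4 kb. Numbered clusters with 40 to 200 reads were more uniform, with a median of 31.2 kb and quartiles of 25.8 and 36.0 kb. Under 1 kb were 4 members, and over 100 kb were 19. Across the members, length and summed reads had a Spearman correlation of 0.0857 (across regions, all from the same 4 libraries).

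Read density varied widely among the members. Summed over the 4 libraries, the median was 4.02 reads per kb, with quartiles of 2.25 and 7.74. The median was 0.864 for piC clusters below the range, 19.7 for those above it and 2.55 for the numbered clusters with 40 to 200 reads. Of the members, 42 had under 1 read per kb and 181 had 10 to 100 reads per kb. Scaled to each library's cluster reads (RPM), the median member had 0.0914 RPM per kb in WT replicate 1, 0.0712 in replicate 2, 0.0932 in Alkbh1-/- and 0.0817 in TzfpGTi/GTi. The Alkbh1-/- median thus lay just above the higher WT value and the TzfpGTi/GTi median between the WT values. With the scaling factors of the fit described below, the 4 medians were 0.0877, 0.0779, 0.0882 and 0.0822 in the same order.

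**Figure D2:**
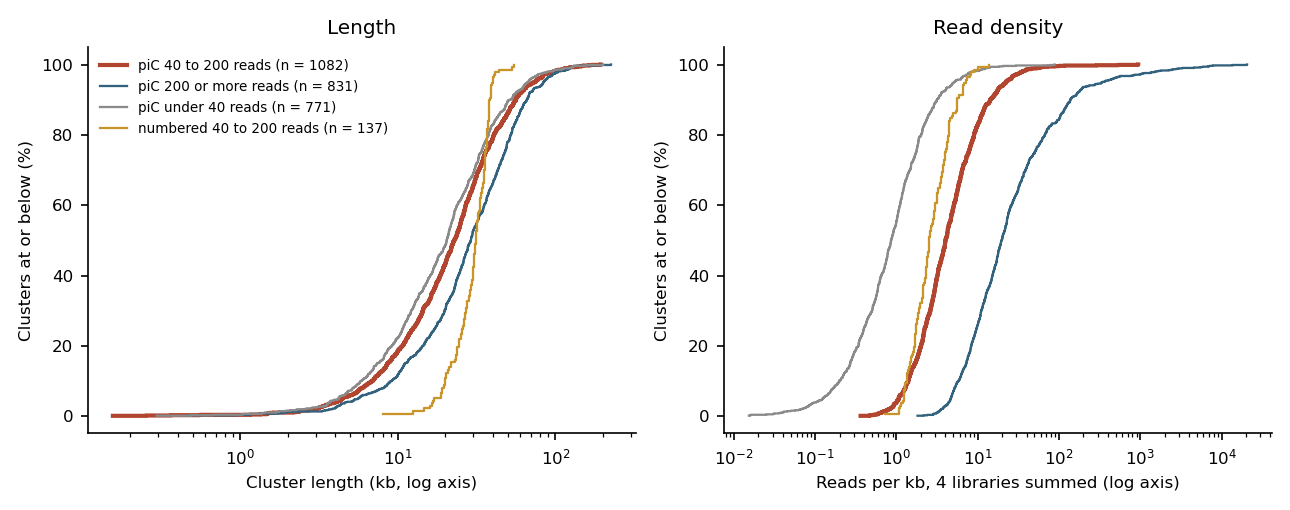
Cumulative share of clusters (%) by length (left, kb, log axis) and by reads per kb summed over the 4 libraries (right, log axis) for the members, 831 piC clusters of 200 or more reads, 771 of under 40 reads and 137 numbered clusters of 40 to 200 reads. The members' median is 22.8 kb and 4.02 reads per kb, and the numbered clusters span a narrower range of lengths.

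Only 4 members exceeded 100 reads per kb, and they were short. The densest was piC_2695 on chromosome 15 (mm9, 74649069 to 74649223, 155 bp), at 945 reads per kb. It had 25 and 40 WT reads, 21.5 in Alkbh1-/- and 60 in TzfpGTi/GTi. It lies 145 bp from piC_1244, a cluster of 58745 bp with 181 and 324 WT reads. The small region thus stands beside a larger one with more reads in total. The next were piC_1952 on chromosome 6 (66825383 to 66825744, 362 bp) at 537 reads per kb, and piC_2815 on chromosome 17 (24161986 to 24162237, 252 bp) at 289. piC_1952 had 33.8 reads in WT replicate 1, 54.8 in replicate 2, 40.3 in Alkbh1-/- and 65.5 in TzfpGTi/GTi. piC_2815 had 24.4, 14.4, 17.4 and 16.6 reads in the same order, with the WT libraries at the highest and the lowest value.

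The fourth was piC_1113 on chromosome 13 (24891909 to 24893402) at 116 reads per kb, whose reads were 41 and 48 in WT, 35 in Alkbh1-/- and 50 in TzfpGTi/GTi. piC_1113 shares 691 bp with piC_2580, another member. Below these came piC_2372, piC_1450, piC_1423 and piC_380, of which piC_380 had 62.8 reads per kb. At the other end, piC_63 on chromosome 1 spread 44.8 reads over 123480 bp, or 0.363 reads per kb. piC_221 had 0.465 and piC_1434 had 0.476 reads per kb. The longest members, piC_2461 on chromosome 11 (194421 bp), piC_2787 on chromosome 16 (169792 bp) and piC_2485 on chromosome 11 (162335 bp), had 1.01, 0.664 and 0.510 reads per kb. Whether the short dense members and the long sparse ones give RNA of the same kind was not tested, since the tables hold no read lengths.

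Members lay on each autosome and on the X chromosome. Chromosome 7 held the most, 95 of its 222 piC clusters, and chromosome 11 held 89 of 221. The X chromosome held 6 members of 33 piC clusters (18.2%), against 31.7 to 50.7% of the piC clusters on single autosomes. Transcription from most of the X chromosome is silenced in pachytene spermatocytes, which is background and was not measured here. Of the 6, piC_1527 (91225619 to 91230565) and piC_2986 (91162978 to 91168704) lie 56914 bp apart. piC_1527 had 9 and 8.50 WT reads, 11.5 in Alkbh1-/- and 30.5 in TzfpGTi/GTi. piC_2986 had 14 and 5.50 WT reads, 7.50 in Alkbh1-/- and 26.5 in TzfpGTi/GTi. In both, TzfpGTi/GTi was the highest of the 4 libraries.

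The numbers in the piC names run through the chromosomes and begin again at chromosome 1 at piC_1536. No source used here says what the runs stand for. Overlaps occurred between the runs only: 184 members (17.0%) overlapped another cluster, always 1 or more of the other run and none of its own. The overlapping neighbour was itself a member for 94 of them, a piC cluster of 200 or more reads for 61 and one of under 40 reads for 29. No member overlapped a numbered cluster. Of the members, 44 lay wholly inside their overlapping neighbour, and 0 of the 44 exceeded that neighbour's reads in any library.

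In 49 pairs both overlapping clusters were members. Counting reads as the same when they differed by less than 0.01, 42 pairs had different reads in each of the 4 libraries and 0 pairs had the same reads in all 4. Some pairs were nearly equal. piC_2166 and piC_691 on chromosome 8 overlap by 5806 bp, and each summed to 64 reads. piC_2166 had 12 reads in WT replicate 1, 16 in replicate 2, 16 in Alkbh1-/- and 20 in TzfpGTi/GTi. In the same order piC_691 had 12, 17, 18 and 17 reads. Overlapping members may count some of the same reads, so they are not independent of each other. Numbered clusters differ in their limits: 2259 of 2260 cover whole blocks of 100 bp, and 0 members do.

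Agreement between the WT libraries sets what can be seen in the mutants. On reads scaled by the trimmed mean of M-values (TMM) and with 1 read added, 913 members (84.4%) agreed within 2-fold between the WT libraries. The SD of the WT log2 ratio was 0.741 over members and 0.544 over piC clusters of 200 or more reads. The members' spread was wider than counting error alone gives, with a chi-square of 3.03 per degree of freedom. It was also lopsided, since 142 members were at least 2-fold higher in WT replicate 1 and 27 at least 2-fold higher in WT replicate 2. Members overlapping another cluster had a median WT log2 ratio of 0.38 and those overlapping none 0.07. The rank correlation of the WT libraries over the members was 0.602 (Spearman, across regions), within a range of reads that the rule narrows.

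The WT difference varied with abundance. For the 243 members of 40 to 60 reads the median WT log2 ratio was 0.34 and its SD 0.887. For the 128 members of 160 to 200 reads these were 0.04 and 0.625. Between 60 and 80 reads the median was 0.17, between 80 and 120 reads 0.07, and between 120 and 160 reads 0.02. The members with fewest reads therefore stood higher in WT replicate 1 relative to WT replicate 2, on the same scaling.

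The widest WT difference among members in this direction was that of piC_1030 on chromosome 11, with 20 reads in WT replicate 1 and 2 in WT replicate 2. Its mutant values, 11 in Alkbh1-/- and 12 in TzfpGTi/GTi, lay between them. The opposite pattern was seen in piC_2178 on chromosome 8 (85184445 to 85279042), with 3.75 reads in WT replicate 1, 56.5 in replicate 2, 3.5 in Alkbh1-/- and 71.8 in TzfpGTi/GTi. In piC_2178, WT replicate 1 and Alkbh1-/- were low and the other two libraries high. On the X chromosome, piC_2989 had 30 reads in WT replicate 1, 4.50 in replicate 2, 13.3 in Alkbh1-/- and 4 in TzfpGTi/GTi. piC_299, piC_956 and piC_872 differed between the WT libraries by 8.45, 6.85 and 6.85 times. By contrast, piC_2901 had 38.5 and 51 WT reads and nearly equal scaled values, 3.62 and 3.64 RPM.

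**Figure D3:**
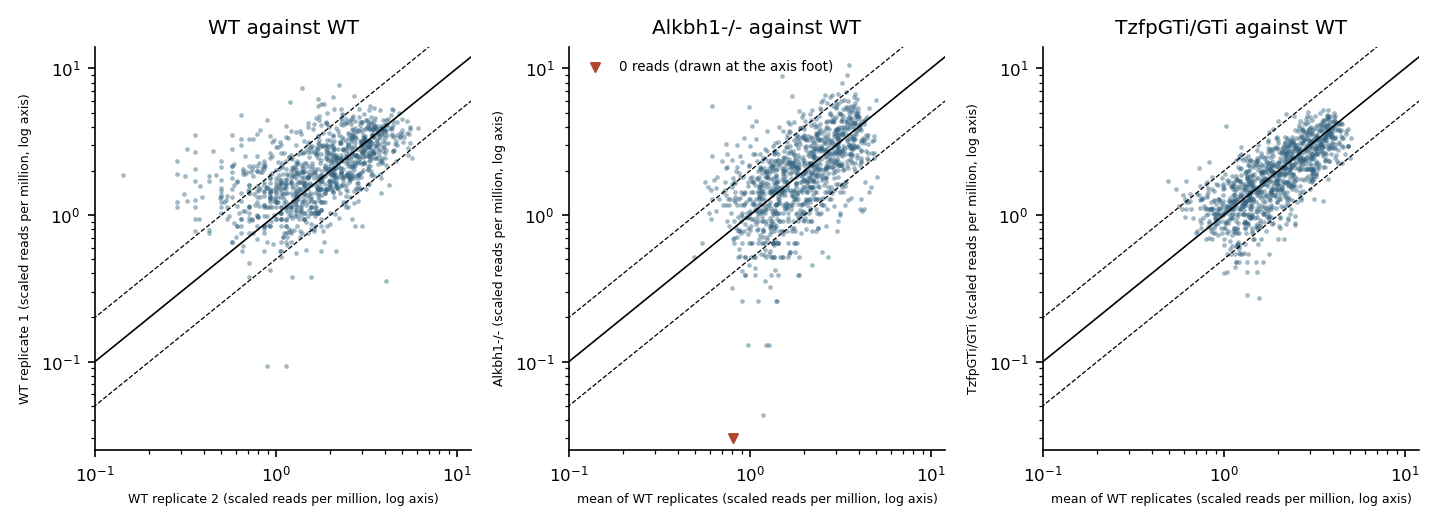
Scaled cluster reads (RPM, log axes) of the members in WT replicate 1 against WT replicate 2 (left), and in Alkbh1-/- (middle) and TzfpGTi/GTi (right) against the mean of the WT libraries; solid lines mark equality, dashed lines 2-fold. Between the WT libraries 84.4% of members lie within 2-fold (1 read added), and the triangle marks piC_1423, which had 0 reads in Alkbh1-/-.

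The first comparison asks how small RNA from the members differs without Alkbh1. No member passed the test: 0 were called at an adjusted p of 0.05 (edgeR's quasi-likelihood test with Benjamini-Hochberg adjustment over 2209 tested clusters, of which 0.272% were called). Each mutant has 1 library and was assumed to vary like WT, which leaves the fit 1 residual degree of freedom. At an unadjusted p under 0.05 there were 75 members (6.93%), against 12.8% of all tested clusters. Of these, 43 members were higher (3.97% of members, against 7.61% of all tested clusters) and 32 lower (2.96%, against 5.21%). DESeq2's Wald test called 0 members, beside 0.996% of all tested clusters, and 8 members had an unadjusted p under 0.05. It gave no adjusted p for any of the 8 members per direction named below for their log2 fold, piC_551 and piC_1287 among them. It could therefore not call them, and its 0 is no test of these members. The median standard error of a member's log2 fold was 0.57, against 0.35 for piC clusters of 200 or more reads.

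As a whole, members in Alkbh1-/- centred on the WT level and scattered on either side. The median log2 fold was 0.02 (quartiles -0.48 and 0.49), beside 0.0038 over all tested clusters. Against WT replicate 1 the median log2 ratio was -0.03 with an SD of 0.759, and against WT replicate 2 it was 0.17 with an SD of 0.865. Of the members, 419 lay above both WT libraries, 352 below both and 311 between them, where 39.7% and 35.0% of all tested clusters lay above and below both. At least 2-fold above both WT libraries were 42 members, against 5.12% of all tested clusters, and at least 2-fold below both were 49, against 4.03%. The 42 are 3.88% of the members and the 49 are 4.53%, near the background in both directions. Scaling moved this split: with library totals the counts were 58 and 33, and that scaling shifted the median of all tested clusters to 0.11. With 2 reads added in place of 1, they were 37 and 30, so that the larger count moved from the lower to the higher side under both settings.

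Members that overlapped another cluster had a median Alkbh1-/- log2 fold of 0.23, and 94 of 184 (51.1%) lay above both WT libraries and 34 (18.5%) below both, where 39.7% and 35.0% of all tested clusters did. Members that overlapped none had a median of -0.05, with 325 of 898 (36.2%) above both WT libraries and 318 (35.4%) below both. Beside these stand the WT values given above, in which the overlapping members also differed more between the WT libraries.

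**Figure D4:**
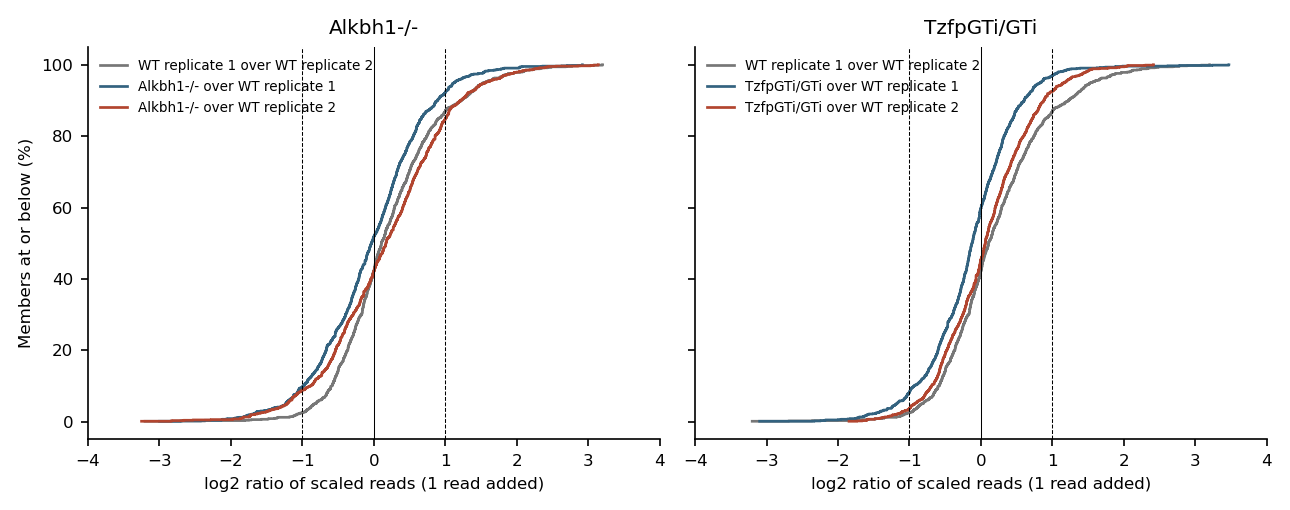
Cumulative share of the members (%) by log2 ratio of scaled reads with 1 read added, for Alkbh1-/- (left) and TzfpGTi/GTi (right) over each WT library, with WT replicate 1 over WT replicate 2 in grey; dashed lines mark 2-fold. The curves against the 2 WT libraries differ in position, with medians of -0.03 and 0.17 for Alkbh1-/- and of -0.12 and 0.06 for TzfpGTi/GTi.

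The member with the largest Alkbh1-/- log2 fold was piC_551 on chromosome 7 (19881724 to 19895194, 13471 bp). It had 7 and 8 WT reads, 42.9 in Alkbh1-/- and 25 in TzfpGTi/GTi. The WT libraries were alike, and both mutants lay above them. The Alkbh1-/- value was 7.56 times WT replicate 1 and 8.84 times WT replicate 2, with a log2 fold of 3.17 ± 0.50 (SE; edgeR adjusted p = 0.0519), just beyond the threshold. It crossed the threshold under 4 alternative settings, with adjusted p-values of 0.0400 (DESeq2 size factors), 5.91e-05 (no filter on low counts), just under 0.05 (filter on rounded sums) and 0.0484 (library sizes over tested clusters). Under these settings 0.634%, 0.829%, 0.452% and 0.498% of the clusters tested were called. It lay farther from the threshold with only WT and Alkbh1-/- fitted (edgeR adjusted p = 0.13) and with library totals (0.298). piC_551 lies wholly inside piC_2024 (19869345 to 19955337), a cluster of the other run with 50.5 and 62 WT reads, 113 in Alkbh1-/- and 102 in TzfpGTi/GTi. The log2 fold of piC_2024 was 1.68 ± 0.32 in Alkbh1-/- (edgeR adjusted p = 0.0949).

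Next was piC_1287 on chromosome 15 (97409799 to 97463839), which had the third most Alkbh1-/- reads of any member. Its reads were 13.5 and 24.4 in WT, 68.1 in Alkbh1-/- and 21.0 in TzfpGTi/GTi. Alkbh1-/- stood alone, 6.55 and 4.94 times the WT libraries, with a log2 fold of 2.52 ± 0.40 (edgeR adjusted p = 0.0525). For piC_1287 the adjusted p was 0.0407 with DESeq2 size factors, 0.000253 with no filter and 0.0488 with library sizes over tested clusters. It was 0.0506 with a filter on rounded sums, 0.122 with only WT and Alkbh1-/- fitted, 0.127 with overlapping clusters left out and 0.298 with library totals.

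piC_432 on chromosome 5 (136122226 to 136140539) had 10.7 and 13.7 WT reads, 42.3 in Alkbh1-/- and 18.2 in TzfpGTi/GTi, with a log2 fold of 2.41 ± 0.47 (edgeR adjusted p = 0.0980). piC_2608 on chromosome 13 (55302280 to 55312907) had 16 and 27.0 WT reads, 50 in Alkbh1-/- and 29.0 in TzfpGTi/GTi, with a log2 fold of 1.90 ± 0.41 (edgeR adjusted p = 0.131). With no filter on low counts these were the other two members called, at adjusted p-values of 0.00534 for piC_432 and 0.0436 for piC_2608. In both, the TzfpGTi/GTi value was close to the WT libraries.

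The other four of the 8 highest had 19.4 to 34 Alkbh1-/- reads. piC_2279 on chromosome 9 had 9.40 and 8.20 WT reads against 23.6, piC_2714 on chromosome 15 had 14.9 and 10.6 against 34, and piC_445 on chromosome 5 had 7 and 8 against 19.4. piC_1349 on chromosome 17 had 6.17 and 20.5 WT reads, 31.2 in Alkbh1-/- and 59.5 in TzfpGTi/GTi, so that both mutants exceeded WT while the WT libraries differed from each other by more than in the other three. Their log2 folds ran from 1.95 ± 0.56 for piC_1349 to 2.14 ± 0.60 for piC_2279.

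The members named for the lowest log2 folds in Alkbh1-/- had very few reads there, and none passed the test. piC_905 on chromosome 10 (81615997 to 81656868) had 8.50 and 22 WT reads, 0.333 in Alkbh1-/- and 9.25 in TzfpGTi/GTi. With a floor of 3 reads in the Alkbh1-/- library, piC_905 was at least 1.94-fold lower there than in WT replicate 1 and at least 4.04-fold lower than in WT replicate 2. For piC_1423 (88804628 to 88805180, 553 bp), with 0 reads, the same floor gave at least 1.94-fold and 2.21-fold lower. Both members lie at the lower limit of the range, with sums of 40.1 reads for piC_905 and 40 for piC_1423. The floor values take the rounded WT reads as exact and leave out counting error in WT, so they are not strict lower bounds.

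For members with 1 to 3 reads in Alkbh1-/-, the ratio has a wide counting interval. piC_1844 on chromosome 4 had 11 and 20 WT reads, 1 in Alkbh1-/- and 8 in TzfpGTi/GTi. The scaled ratio of WT replicate 1 to Alkbh1-/- was 7.99 (95% exact interval 1.16 to 344) in piC_1844. In piC_2050, piC_1629 and piC_2098 the same ratio was 5.45 (1.27 to 49.1), 5.57 (1.68 to 29.0) and 4.36 (1.27 to 23.1).

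Among the members named for the lowest Alkbh1-/- log2 folds, 2 had more summed reads and a smaller standard error than the others. piC_1863 on chromosome 5 (32899676 to 32913172) had 24.5 and 43 WT reads, 4 in Alkbh1-/- and 49.6 in TzfpGTi/GTi, with a log2 fold of -2.35 ± 0.65 (edgeR adjusted p = 0.236). piC_856 on chromosome 10 (11018047 to 11063031) had 29.8 and 31.0 WT reads, 4.33 in Alkbh1-/- and 35.8 in TzfpGTi/GTi, with a log2 fold of -2.25 ± 0.66 (edgeR adjusted p = 0.241). In both, Alkbh1-/- was the lowest library and TzfpGTi/GTi was at or near the WT values. Some members outside this list had smaller adjusted p-values with less extreme log2 folds. piC_2645 on chromosome 14 had 44 and 62 WT reads and 8.5 in Alkbh1-/-. piC_10 on chromosome 1 had 44 and 55.5 against 8.5, and piC_1871 on chromosome 5 had 47.5 and 54.6 against 8.17. Their log2 folds were -2.04 ± 0.51, -1.96 ± 0.49 and -2.01 ± 0.51 (edgeR adjusted p = 0.185, 0.185 and 0.191).

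Some of the most abundant members in Alkbh1-/- were also abundant in 1 WT library. piC_2101 on chromosome 7 had 62.4 reads in WT replicate 1, 16.8 in replicate 2, 81.7 in Alkbh1-/- and 18.2 in TzfpGTi/GTi. WT replicate 1 and Alkbh1-/- were high and the other two low. piC_1806 on chromosome 4 had 48.8, 32.3, 70 and 45.3 reads in the same order, with a log2 fold of 1.41 ± 0.45 in Alkbh1-/-. piC_380 on chromosome 5 (86494446 to 86497478), one of the dense members, went the other way, with 42.0 and 85 WT reads, 14 in Alkbh1-/- and 49.5 in TzfpGTi/GTi.

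By chromosome, members with an unadjusted p under 0.05 in Alkbh1-/- were most frequent on chromosome 10, at 11 of 42 (26.2%). They went both ways, 6 higher and 5 lower, and 20.8% of all tested clusters on that chromosome reached the same p. Chromosome 8 held 0 such members of 58, against 7.25% of all tested clusters there, chromosome 18 held 0 of 37, against 1.75%, and the X chromosome held 0 of 6, against 6.67%. On chromosome 10, piC_2385 had 30 and 29.5 WT reads and 40 in Alkbh1-/-, and the overlapping piC_926 had 24 and 20.5 WT reads and 39.5 in Alkbh1-/-. These counts were chosen after the values were seen and have no test.

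**Figure D5:**
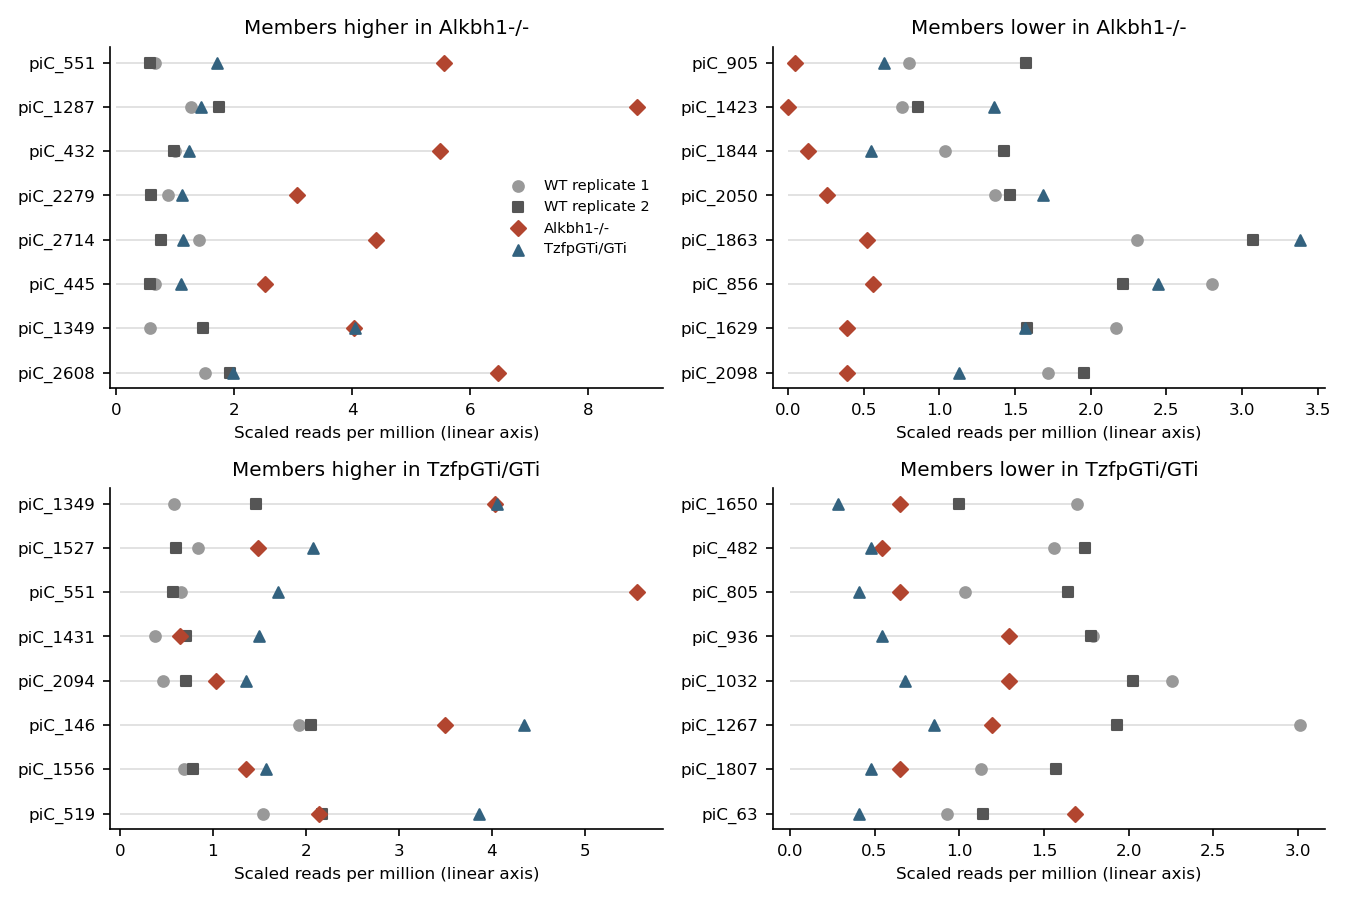
Scaled cluster reads (RPM, linear axis) in each of the 4 libraries for the 8 members with the largest log2 fold in each direction, in Alkbh1-/- (top) and TzfpGTi/GTi (bottom), among members outside both WT libraries by more than the WT difference. Each point is 1 library; none of these members passed the test, and the largest separation is that of piC_551 and piC_1287 in Alkbh1-/-.

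The second comparison asks the same of the Tzfp gene trap. Here too 0 members were called (edgeR's quasi-likelihood test, adjusted p of 0.05; 0.0905% of all tested clusters were called). At an unadjusted p under 0.05 there were 15 members (1.39%), against 1.86% of all tested clusters. Of these, 9 members were higher (0.832% of members, against 1.36% of all tested clusters) and 6 lower (0.555%, against 0.498%). DESeq2's Wald test called 0 members and had 0 at an unadjusted p under 0.05. With no filter on low counts, 0.0607% of clusters and 0 members were called. This comparison shares its WT libraries with the first.

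TzfpGTi/GTi members centred near WT with a narrower spread than those of Alkbh1-/-. The median member had 27.0 reads in TzfpGTi/GTi against 15.1 in Alkbh1-/-, and the part of depth in the spreads was not tested. The median TzfpGTi/GTi log2 fold was -0.03 (quartiles -0.39 and 0.27), beside -0.0049 over all tested clusters. Against each WT library the SD of the log2 ratio was 0.636 and 0.635, below the 0.741 between the WT libraries themselves. Of the members, 303 lay above both WT libraries, 360 below both and 419 between them, where 30.0% and 30.2% of all tested clusters lay above and below both. At least 2-fold above both WT libraries were 4 members (0.370%, against 0.453% of all tested clusters), and at least 2-fold below both were 16 (1.48%, against 0.996%).

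The 4 members at least 2-fold above both WT libraries were piC_1349, piC_551, piC_1527 and piC_146. piC_1349 (chromosome 17, 13181166 to 13199057) had the largest fold: TzfpGTi/GTi was 6.12 times WT replicate 1 and 2.69 times WT replicate 2. Its log2 fold was 1.98 ± 0.53, and its Alkbh1-/- log2 fold 1.95 ± 0.56. The log2 fold of piC_551 was 1.46 ± 0.53 in TzfpGTi/GTi, and that of piC_2024, which contains it, was 0.61 ± 0.33. The log2 fold of the X-linked piC_1527 was 1.53 ± 0.60, and that of its neighbour piC_2986 was 1.06 ± 0.73.

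piC_146 on chromosome 2 (131073780 to 131084092) had the most reads of the 4: 20.5 and 28.7 in WT, 27.0 in Alkbh1-/- and 63.8 in TzfpGTi/GTi. The WT libraries agreed closely, at 1.93 and 2.05 RPM, and TzfpGTi/GTi was 2.18 and 2.08 times them. It lies wholly inside piC_1649 (131064037 to 131089820), whose reads were 48.5 and 72.7 in WT, 35 in Alkbh1-/- and 90.8 in TzfpGTi/GTi. The log2 fold of piC_146 was 1.13 ± 0.39 and that of piC_1649 was 0.35 ± 0.34, and their difference was not tested.

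Of the other named members on the high side, piC_519 on chromosome 6 had 16.3 and 30.5 WT reads and 56.6 in TzfpGTi/GTi. piC_1431, piC_2094 and piC_1556 had 20 to 23 reads in TzfpGTi/GTi and 4 to 11 in the WT libraries. Their log2 folds lay between 1.07 ± 0.44 for piC_519 and 1.41 ± 0.70 for piC_1431.

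On the low side, among members outside both WT libraries by more than the WT difference, the lowest log2 fold was that of piC_1650 on chromosome 2 (146831310 to 146839476), at -2.24 ± 0.85. Lower still was piC_2989, described above for its WT difference, at -2.41 ± 1.33. piC_1650 had 18 and 14 WT reads, 5 in Alkbh1-/- and 4.20 in TzfpGTi/GTi. piC_482 on chromosome 6 had 16.6 and 24.4 WT reads, 4.20 in Alkbh1-/- and 7 in TzfpGTi/GTi. In piC_1650 and piC_482 each mutant lay below each WT library. piC_1267 on chromosome 15 had the same order with more reads: 32 and 27.0 in WT, 9.20 in Alkbh1-/- and 12.5 in TzfpGTi/GTi. Its neighbour piC_2711, which overlaps it by 9482 bp, had 8 and 5 WT reads, 0.200 in Alkbh1-/- and 0 in TzfpGTi/GTi, too few to enter the fit.

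On chromosome 11, piC_936 had 19 and 24.9 WT reads against 8 in TzfpGTi/GTi, and piC_1032 had 24 and 28.3 WT reads against 10. Their log2 folds were -1.69 ± 0.64 and -1.62 ± 0.59. piC_805 on chromosome 9 had 11 and 23 WT reads and 6 in TzfpGTi/GTi. The 1524 bp piC_1807 on chromosome 4, inside the much larger piC_304, had 12 and 22 WT reads and 7 in TzfpGTi/GTi. piC_63, the sparsest member, had 9.85 and 16 WT reads, 13 in Alkbh1-/- and 6 in TzfpGTi/GTi.

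The members with the most TzfpGTi/GTi reads were piC_475 on chromosome 6, piC_880 on chromosome 10 and piC_2783 on chromosome 16. piC_475 had 61.3 and 25 WT reads, 33 in Alkbh1-/- and 76 in TzfpGTi/GTi. piC_880 had 32.7 and 56 in WT, 23.3 and 76 in the mutants, and piC_2783 had 30 and 42.5 in WT, 20.3 and 74.3 in the mutants. Of these, piC_2783 had the closest WT libraries, and its TzfpGTi/GTi log2 fold was 0.79 ± 0.37. The study is named for 1 numbered cluster on chromosome 7. A single member, piC_635 (132634824 to 132649018), lies within 1 Mb of it, 158230 bp away. It had 16 and 25 WT reads, 9 in Alkbh1-/- and 29.5 in TzfpGTi/GTi, with log2 folds of -0.50 ± 0.60 and 0.31 ± 0.50.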

How the data were processed

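The deposited small RNA tables give an expected count per cluster and library with its mm9 position. The submitters' processing notes list mm9, CASAVA 1.3, bedtools, Novoalign and TopHat without saying which did what. No source used here says how clusters were defined. The deposited mRNA table holds read counts per gene, used as CPM for markers only.

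Starts were converted to 1-based positions. Expected counts were rounded, clusters with a deposited sum of 40 or more (2209, including each member) were scaled by TMM and fitted by genotype over all 4 libraries with edgeR 4.0.16 in R 4.3.3. The biological coefficient of variation was 0.257. The threshold was an adjusted p of 0.05; DESeq2 1.42.0 was an alternative. The fit was tested on simulated data.

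Members and lists were chosen with earlier results of these data known, and the summed reads that chose them include the mutant libraries. Where fewer than 5 members passed, those named were the 8 with the largest log2 fold per mutant and direction, outside both WT libraries by more than the WT difference. Density, length, limits, WT difference, position and read rank named the others. Markers were matched by symbol. Gene annotation and sequences of mm9 were not used here.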

Additional observations from a re-analysis of the deposited data

How the results depend on the processing

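The number of members called in Alkbh1-/- was 0 in the fit given above, with library totals, DESeq2's Wald test, 1 mutant at a time and overlapping clusters left out, 1 with a filter on rounded sums, 2 with DESeq2 size factors and 4 with no filter. With library sizes over the tested clusters, chosen after seeing the data, it was 2. In TzfpGTi/GTi the number called was 0 under each of these settings. The fit with overlapping clusters left out held 970 members. It did not hold piC_551, which overlaps a cluster with more reads, so it could not call piC_551. In Alkbh1-/- DESeq2's Wald test gave no adjusted p for any of the 8 members per direction named for their log2 fold. It could therefore not call them, and its 0 is no test of these members. Against 1 WT library at a time, the median log2 ratio with 1 read added ran from -0.0309 to 0.171 in Alkbh1-/-. In TzfpGTi/GTi it ran from -0.124 to 0.062. A fit without 1 WT library would have no residual degrees of freedom, so these ratios were not fitted and have no test. With 2 reads added, 30 members were 2-fold below both WT libraries in Alkbh1-/- and 10 in TzfpGTi/GTi. With overlapping clusters left out, 2 members were 2-fold above both in TzfpGTi/GTi. Median reads per kb as deposited, not scaled for depth, were 0.932 and 1.09 in WT, 0.681 in Alkbh1-/- and 1.21 in TzfpGTi/GTi. The cause of the other changes was not tested. No paired analysis was possible because the groups compared share fewer than 2 replicate numbers. Depth limits the members: their medians were 15.1 to 27.0 reads per library, and the median standard error of a log2 fold was 0.57 in Alkbh1-/- and 0.53 in TzfpGTi/GTi.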
